A study of Mus musculus with 65 samples.

Results

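Glycolysis and the tricarboxylic acid (TCA) cycle were followed here through 33 genes of the 25239 in the table of a differentiation series, chosen by name for their step in the pathway. They comprise 2 glucose transporters, 15 glycolytic enzymes, 4 genes of lactate formation and transport, 5 genes of the pyruvate dehydrogenase step and 7 genes of the TCA cycle. Most of the glucose uptake, glycolysis and lactate genes fell between day 4 and day 6. Among the genes of the set that passed the test, Slc16a3, Slc2a3, Pdk1 and Ldha fell furthest. HM1 mouse embryonic stem cells, a cell line with no further genotype given, were grown on feeders, freed of them and differentiated towards the ventral spinal cord as monolayers. Between days 2 and 3 the medium held bFGF, CHIR99021, SB-431542 and DMH1, and the day 3 cells were labelled NMP (neuromesodermal progenitors, bipotent cells of the trunk). From day 3 all cells received retinoic acid with 0, 10, 100 or 500 nM SAG, an agonist of Smoothened that activates the Sonic hedgehog pathway. On days 4, 5 and 6 the cells were fixed with paraformaldehyde, stained for transcription factors and sorted from the SOX2-positive gate into p3 (NKX2.2), pMN (OLIG2), p2 (NKX6.1 with PAX6) and p0-1 (PAX6 without NKX6.1) progenitors.

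The series holds 65 libraries in 25 groups, with 3, 16, 24 and 22 of them from days 3, 4, 5 and 6. p0-1 cells came from 0 and 10 nM SAG, p2 cells from 10 and 100 nM, and pMN and p3 cells from 100 and 500 nM, so cell type and SAG concentration are only partly crossed. Replicates are independent differentiations of 1 line, and cell types sorted from 1 differentiation may carry the same replicate number, which the labels do not say. Each group had 3 libraries on days 5 and 6 except p3 and pMN at 500 nM on day 6 with 2, and on day 4 the p3 cells at 100 nM and the p2 cells at 10 nM had 1 library each. Libraries held 7615114 to 13484815 reads in genes and 9718 to 15963 genes with a read. The fewest genes were in the p3 library at 100 nM on day 4, and 4 libraries had under 11000. Values are normalised counts, that is, reads per gene divided by 1 size factor per library.

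The labels were set against marker lists. The summed level of 4 NMP markers (T, Cdx2, Nkx1-2, Cdx1) had a median of 4940 normalised counts on day 3, of 49.5 a day later and of 0 on days 5 and 6, when its highest library was at 262. Sums of 6 progenitor markers (Sox2, Nkx2-2, Olig2, Nkx6-1 and Pax6 from the sort, and Dbx1, a p0-1 gene) had medians of 283, 3965, 6276 and 7033 over the 4 days. Over days 4 to 6, Nkx2-2 had a median of 211 in p3, 3.23 in pMN and 0 in p2 and p0-1, and Olig2 one of 3025 in pMN, against 650 in p3, 162 in p2 and 0 in p0-1. Nkx6-1 had medians of 523, 500 and 312 in p3, pMN and p2 and 2.27 in p0-1, and Pax6 of 3888 in p2 and 2790 in p0-1 against 207 in p3, so the transcripts followed the sort, with Olig2 still present in p3. Summed neuron markers were also higher on day 6, with a median of 4266 and a range of 1978 to 7297 against 1433 (222 to 1719) on day 4. Of the 9 markers 5 passed the test as higher, as did 1712 of all 13964 genes tested. The median of the summed neuron markers was 2935 (2235 to 3145) in the NMP cells of day 3 and 1760 (317 to 2986) on day 5. It was thus lower on days 4 and 5 than on day 3, and highest on day 6. Floor plate markers summed to a median of 2997 (344 to 11998) in p3 cells of days 5 and 6 and to 673, 384 and 390 in pMN, p2 and p0-1. Mesoderm and fibroblast markers had medians of 463, 252 and 204 on days 4, 5 and 6, and pluripotency markers 971 on day 3 and 9.85, 5.16 and 2.66 after. The part of these changes in the results that follow was not tested. In bulk samples, fewer cells of a type and less RNA per cell cannot be told apart.

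As background, cells take up glucose through facilitative transporters, trap it by phosphorylation and split it in the glycolytic steps to pyruvate. Pyruvate is either reduced to lactate, which leaves the cell through monocarboxylate transporters and regenerates NAD+, or is oxidised by pyruvate dehydrogenase to acetyl-CoA, which feeds the TCA cycle in the mitochondrion. Pyruvate dehydrogenase kinases switch that entry off. Embryonic stem cells and early embryos are known for a high glycolytic flux, and several of these genes are textbook targets of hypoxia-inducible factors and MYC, whose sites hold the cores RCGTG and CACGTG.

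The promoters of 5 genes are shown because these genes represent uptake (Slc2a1), the pathway core (Pgk1), lactate formation and export (Ldha, Slc16a3) and the pyruvate dehydrogenase gate (Pdk1). Each line gives the 250 bases before the RefSeq start on GRCm38.p6, the assembly known as mm10, from 5′ to 3′ on the plus strand, with the letters ACGTG or GCGTG on either strand in capitals. The windows are chr4:119108495-119108744 for Slc2a1, chrX:106186850-106187099 for Pgk1, chr7:46845554-46845803 for Ldha, chr11:120948817-120949066 for Slc16a3 and chr2:71872974-71873223 for Pdk1, and Ldha and Pdk1 have a further annotated start that is not shown. The Slc16a3 start lies inside the span of the gene, downstream of its first base.
Slc2a1: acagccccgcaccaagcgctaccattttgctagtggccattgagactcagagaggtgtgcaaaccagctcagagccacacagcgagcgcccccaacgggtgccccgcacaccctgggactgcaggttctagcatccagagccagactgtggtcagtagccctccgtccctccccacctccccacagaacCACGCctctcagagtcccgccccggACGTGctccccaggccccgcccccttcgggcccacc
Pgk1: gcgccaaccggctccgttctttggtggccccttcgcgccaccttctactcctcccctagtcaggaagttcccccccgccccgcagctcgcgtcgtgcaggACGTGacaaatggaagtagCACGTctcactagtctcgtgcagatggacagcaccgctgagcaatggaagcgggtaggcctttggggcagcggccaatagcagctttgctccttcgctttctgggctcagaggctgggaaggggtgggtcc
Ldha: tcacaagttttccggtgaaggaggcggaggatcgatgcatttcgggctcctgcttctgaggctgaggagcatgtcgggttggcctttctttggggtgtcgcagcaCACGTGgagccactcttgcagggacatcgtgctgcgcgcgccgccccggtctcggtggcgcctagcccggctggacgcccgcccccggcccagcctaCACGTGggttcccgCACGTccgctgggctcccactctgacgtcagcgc
Slc16a3: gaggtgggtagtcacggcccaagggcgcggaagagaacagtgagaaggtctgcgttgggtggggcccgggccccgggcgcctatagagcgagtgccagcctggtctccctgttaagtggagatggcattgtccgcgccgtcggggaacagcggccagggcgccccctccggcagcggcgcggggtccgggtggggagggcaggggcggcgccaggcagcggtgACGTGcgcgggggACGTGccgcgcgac
Pdk1: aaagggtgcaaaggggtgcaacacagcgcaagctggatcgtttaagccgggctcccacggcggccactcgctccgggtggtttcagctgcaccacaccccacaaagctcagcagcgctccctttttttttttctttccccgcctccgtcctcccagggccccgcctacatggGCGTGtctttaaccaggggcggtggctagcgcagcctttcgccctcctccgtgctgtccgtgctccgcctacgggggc
The Ldha window holds 2 copies of the palindrome CACGTG, each of which contains ACGTG on both strands, and 1 further ACGTG 34 bases before the start. In Slc16a3 the 2 matches to ACGTG lie 27 and 14 bases before the start, and in Pgk1 they lie 150 and 131 bases before it. The Slc2a1 window has 1 match to each form, and that of Pdk1 has 1 GCGTG. Of the 31 members in the RefSeq promoter table, 14 (45.2%) had ACGTG in a window, against 18.5% of 27025 genes. GCGTG was found in 21 (67.7%) against 30.9%, and CACGTG in 4 (12.9%) against 6.86%. A gene counted if any of its windows matched, and the 31 members had 48 windows against 32851 for the 27025 genes. Per window the shares were 43.8% against 16.6% for ACGTG, 58.3% against 28.2% for GCGTG and 12.5% against 6.02% for CACGTG. Base composition was not matched. These are matches of letters in windows of equal length and say nothing of whether a factor was bound.

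All 33 genes had a mean above 10 normalised counts and entered the test, 21 had a mean of at least 1000, and 25 had a read in each of the 65 libraries. Together they made up a median of 1.46, 1.20, 0.779 and 0.638% of the normalised counts over days 3 to 6. The day 6 range of 0.501 to 0.797% lay below the day 4 range of 1.02 to 1.56%. Changes between days were tested with limma on log2(value + 1), averaged over cell types and SAG concentrations, with Benjamini-Hochberg adjustment over 13964 genes and a call at an adjusted p below 0.05. From day 4 to day 6, 21 of the 33 (63.6%) fell and 0 rose, where 22.3% of all genes tested were called and 10% were called lower. At an unadjusted p below 0.05 there were 24, and edgeR called 21 and DESeq2 22, of which 1 each (Eno2) was higher. Among tests, here and below, shares over all genes were counted for limma's adjusted calls only. Counts by an unadjusted p, edgeR or DESeq2 therefore have no background. With a stricter rule of an adjusted p below 0.01 and more than a 2-fold change, 11 of the 33 were lower, against 3.04% of all genes. High counts make a call easier, so the members were also read by level. Of the 21 with a mean of at least 1000, 17 (81%) were lower against 21.1% of all genes that abundant. Of the 12 below 1000, 4 (33.3%) were lower. The share of all genes below 1000 was not counted, and that of all genes tested was 10%. The median log2 change of the members was -0.78 and that of all genes 0.02. Every day 6 library lay below every day 4 library for 7 members (Slc2a3, Aldoa, Gapdh, Pgk1, Eno1, Ldha and Slc16a3), a separation seen in 0.222% of all genes tested.

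Both steps held called genes when each library counted as 1 value. From day 4 to day 5, 17 members (51.5%) were lower, where 12.3% of all genes were called and 4.83% were lower. From day 5 to day 6, 10 members (30.3%) were lower, where 3.95% were called and 1.99% were lower. Limma called 0 members higher in either step, and 8 fell in both. DESeq2 called Eno2 and Sdhb higher in the first step and Ldhb in the second. By role, both glucose transporters, 10 of 15 glycolytic enzymes, 3 of 4 lactate genes, 2 of 5 pyruvate dehydrogenase genes and 4 of 7 TCA cycle genes were lower on day 6 than on day 4. In the day 5 to day 6 step limma called 0 of the 7 TCA cycle genes (1 at an unadjusted p below 0.05, 0 by edgeR or DESeq2), against 6 of 15 glycolytic enzymes, and the difference between these roles was not tested. The p-values above treat libraries of 1 day as independent. When the libraries of a day with the same replicate number were reduced to 1 value, leaving 3 values per day, 15 members fell from day 4 to day 6 against 4.39% of all genes. Of the 21 calls 14 were kept and Pfkp was added, and Slc2a1, Hk2, Slc16a1, Idh3a, Sdha, Fh1 and Mdh2 were lost. From day 4 to day 5 this left 4 members (Slc2a3, Aldoa, Eno1 and Ldha) against 0.695% of all genes called lower. From day 5 to day 6 it left 0 by limma, against 0.00716% of all genes called lower. In that step 11 members had an unadjusted p below 0.05, for which the share over all genes was not counted. With fewer values per day the test also has less power. Replicate 1 of day 4 came only from p0-1 at 10 nM and p3 at 500 nM, and its value had the same weight as the others. In 16 of the 21 called members the group mean was lower on day 6 than on day 4 in all 8 matched groups of cell type and SAG concentration. The calls were made on the average of the same 8 groups, so agreement among the groups follows in part from the selection. The share among all genes, or among all genes called lower, was not counted, so the 16 have no background to be read against.

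**Figure D1:**
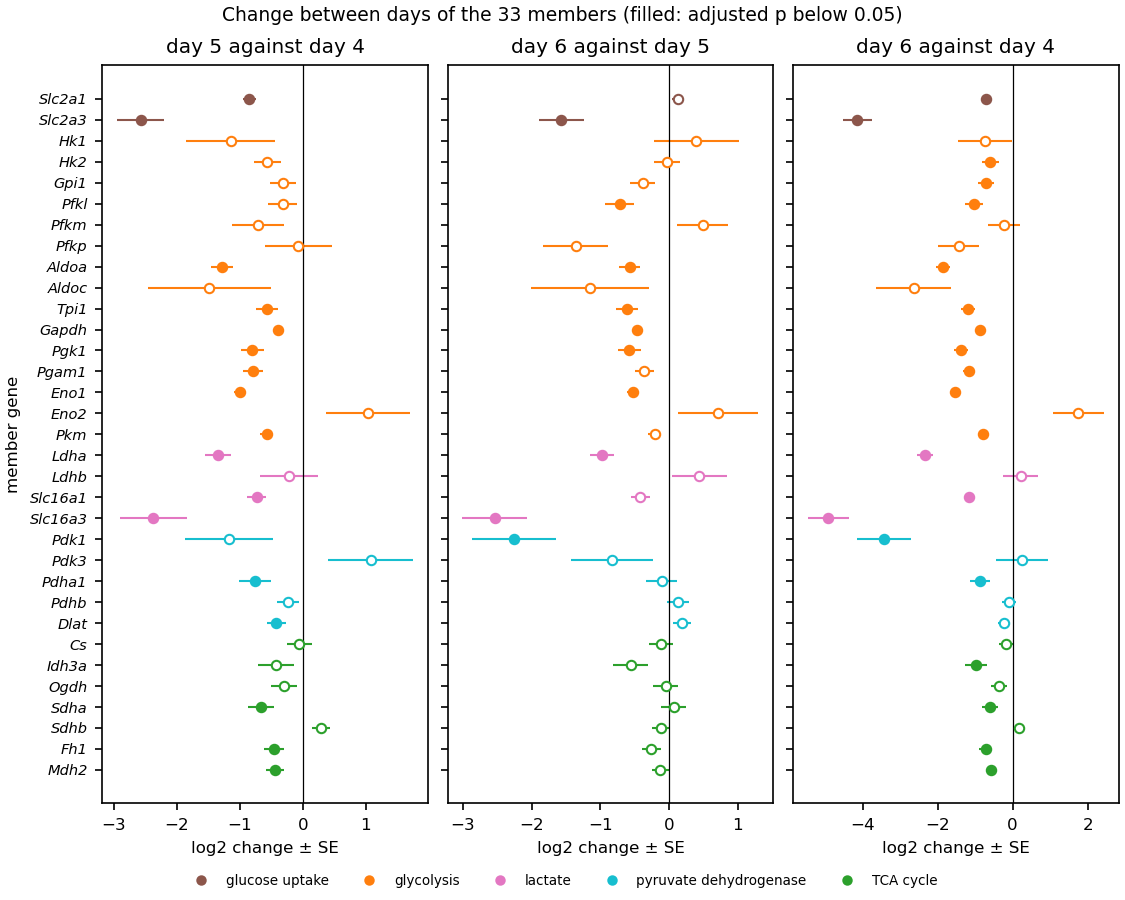
Log2 change with its standard error for each of the 33 genes from day 4 to 5, 5 to 6 and 4 to 6, with filled points for an adjusted p below 0.05 and colours for the role. Filled points lie left of 0 in each panel, 17, 10 and 21 of them, and Slc16a3 and Slc2a3 lie farthest left in the day 4 to 6 panel at -4.91 and -4.14.

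Slc2a1, which encodes the widespread glucose transporter GLUT1, was at 15678, 18743 and 19476 normalised counts in the 3 day 3 libraries. On day 4 its lowest, median and highest library were at 8734, 12934 and 19818, on day 5 at 4014, 7549 and 12897, and on day 6 at 3491, 8283 and 14896. It fell from day 4 to day 5 by 0.85 on the log2 scale (SE 0.104, adjusted p = 3.41e-08) and then changed by 0.13 (adjusted p = 0.515), and the day ranges overlap. With 1 value per day and replicate number the Slc2a1 change was -0.71 from day 4 to 5 (adjusted p = 0.0590) and -0.56 from day 4 to 6 (adjusted p = 0.0629), which were not called. Slc2a3, which encodes GLUT3, a transporter with a high affinity for glucose, started at 12989, 7866 and 16413 on day 3. Its libraries ran from 1188 to 6161 with a median of 2459 on day 4, from 31.5 to 1961 with a median of 509 on day 5, and from 3.53 to 624 with a median of 214 on day 6. The day 6 libraries lay below all of day 4. The log2 changes were -2.58 (SE 0.377, adjusted p = 1.78e-06) from day 4 to 5, -1.57 (SE 0.331, adjusted p = 0.00225) from day 5 to 6 and -4.14 (SE 0.385, adjusted p = 7.79e-12) over both. Reduced to 1 value per day and replicate number, the first and last of these were still called. The day 5 to 6 change of Slc2a3 was then -1.52 and not called (adjusted p = 0.292). The day 6 median was 11.5-fold lower than that of day 4 and 60.6-fold lower than that of day 3, against 1.56-fold and 2.26-fold for Slc2a1. By cell type the day 4 to 6 log2 change of Slc2a3 was -4.68 in p3, -3.99 in pMN, -4.19 in p2 and -3.71 in p0-1. Slc2a1 lies at chr4:119108745-119137329 on the plus strand and Slc2a3 at chr6:122727809-122742745 on the minus strand of mm10.

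**Figure D2:**
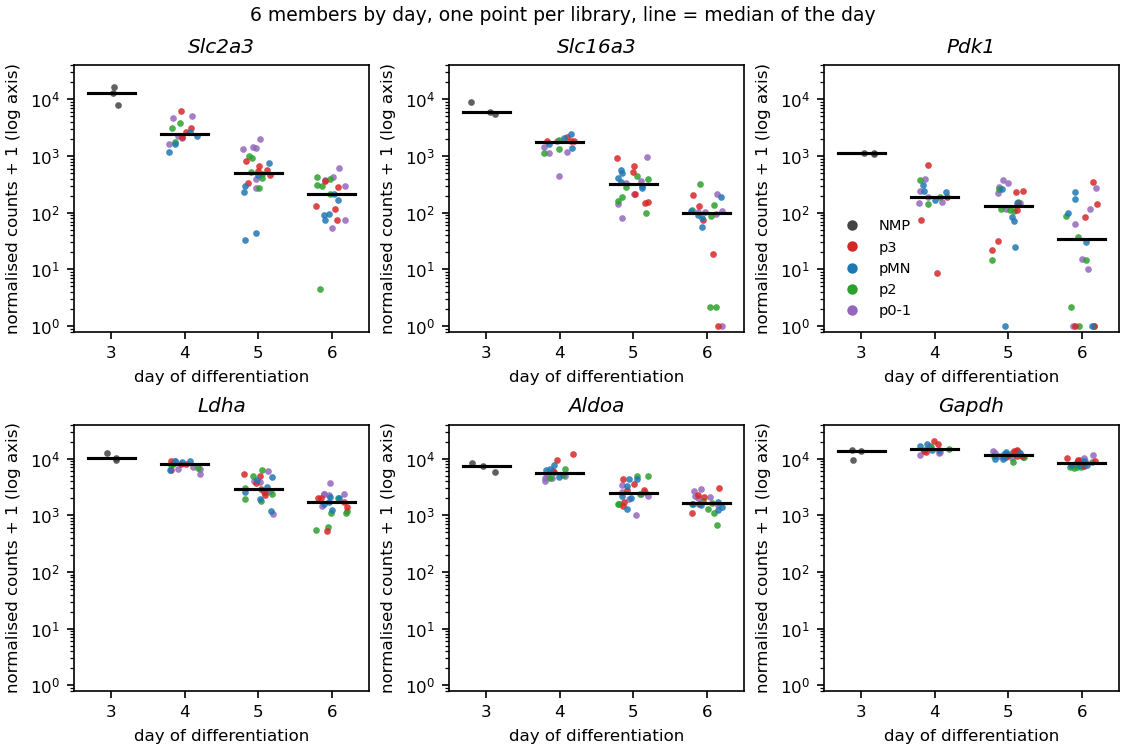
Normalised counts + 1 on a log axis by day, 1 point per library coloured by cell type, for Slc2a3, Slc16a3, Pdk1, Ldha, Aldoa and Gapdh, with a line through the day medians. The median of Slc2a3 drops from 12989 on day 3 to 214 on day 6, while that of Gapdh moves from 13791 to 8497.

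Ldha and Slc16a3, which make and export lactate, were among the genes that fell furthest. Ldha encodes the lactate dehydrogenase subunit that predominates in glycolytic tissues, and it stood at 9582, 12515 and 10291 on day 3. Its lowest, median and highest libraries were 5429, 7888 and 9249 on day 4, 1036, 2949 and 6254 on day 5, and 521, 1694 and 3664 on day 6. Ldha fell by 1.35 on the log2 scale from day 4 to 5 (SE 0.205, adjusted p = 3.32e-06) and by 0.97 from day 5 to 6 (SE 0.180, adjusted p = 4.08e-04), and its day 6 libraries did not overlap those of day 4. Reduced to 1 value per day and replicate number, its day 4 to 5 call was kept and its day 5 to 6 call was lost. Slc16a3, which encodes the lactate exporter MCT4, was at 5410, 8946 and 6099 on day 3. It ran from 446 to 2428 with a median of 1740 on day 4, from 78.8 to 943 with a median of 319 on day 5, and from 0 to 320 with a median of 97.4 on day 6, when 2 libraries had no read. Its log2 change from day 4 to 6 was -4.91 (SE 0.546, adjusted p = 1.18e-09), with -2.38 and -2.54 in the 2 steps, and its median fell 17.9-fold. The day 4 to 6 call of Slc16a3 was kept with 1 value per day and replicate number. Those of both steps were lost (adjusted p = 0.100 from day 4 to 5). In p3, pMN, p2 and p0-1 the day 4 to 6 change of Slc16a3 was -5.76, -4.18, -5.31 and -4.41, and that of Ldha was -2.55, -2.28, -2.94 and -1.54. Slc16a1, which encodes the lower-capacity transporter MCT1, had medians of 4124, 4901, 2629 and 1965 on days 3 to 6 and fell by 1.15 from day 4 to 6 (SE 0.159, adjusted p = 2.07e-07), while with 1 value per day and replicate number its change was -0.88 (adjusted p = 0.110). Ldhb, the heart-type subunit, had medians of 1373, 487, 505 and 689, and its day 4 to 6 change of 0.22 was not called (adjusted p = 0.788). Ldha lies at chr7:46845804-46855627 and Slc16a3 at chr11:120948484-120959000, both on the plus strand.

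Among the glycolytic enzymes, 7 of the 9 from aldolase to pyruvate kinase fell from day 4 to day 6. Aldoa, the aldolase that splits fructose bisphosphate, was at 5798, 7318 and 8298 on day 3 and then had medians of 5569 (4027 to 12113), 2476 (1030 to 4961) and 1622 (670 to 3048) on days 4, 5 and 6. Its log2 change from day 4 to day 6 was -1.86 (SE 0.180, adjusted p = 2.24e-11), and the ranges of these days did not overlap. Gapdh, the glyceraldehyde phosphate dehydrogenase often used as a reference gene, had medians of 14564 (11673 to 20154) on day 4, 11503 (8813 to 14283) on day 5 and 8497 (6918 to 11506) on day 6. It fell by 0.39 in the first step (adjusted p = 2.95e-05), by 0.46 in the second (adjusted p = 5.37e-07) and by 0.86 over both (SE 0.0687, adjusted p = 9.68e-14), so it was not a constant across these days. The call over both steps was kept with 1 value per day and replicate number. Those of the single steps were lost (adjusted p = 0.201 from day 4 to 5). Pgk1, the first ATP-yielding kinase, had medians of 3018 (1946 to 5678), 1758 (957 to 3824) and 1285 (452 to 1873) and fell by 1.38 (SE 0.193, adjusted p = 2.95e-07). Day 6 values of Gapdh and Pgk1 lay below all of day 4, by a narrow margin in both.

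Eno1, the ubiquitous enolase, had the highest median of the set on days 4 and 5, with medians of 23970 (17372 to 37276), 11944 (8892 to 19807) and 8010 (4069 to 12176) on days 4, 5 and 6. Its day 4 to 6 change was -1.53 (SE 0.0868, adjusted p = 5.43e-19), with no overlap. Eno1b, a near-identical copy that lies on another chromosome, had medians of 19559, 9699 and 6475 on the same days, so the counting could have split or shared reads between them and the level of Eno1 is uncertain. Tpi1 (triose phosphate isomerase), Pgam1 (phosphoglycerate mutase) and Pkm (pyruvate kinase) fell by 1.18, 1.15 and 0.78, with adjusted p of 2.35e-06, 2.16e-07 and 2.16e-07. The medians of day 4 and day 6 were 2516 and 952 for Tpi1, 3313 and 1684 for Pgam1, and 11479 and 6989 for Pkm, whose M1 and M2 forms a gene-level count does not separate. Exons of Tpi1 overlap Spsb2 on the other strand, those of Pfkp overlap Pitrm1 and those of Pdha1 overlap Map3k15, and the library kit does not mark strand, so these genes may share reads.

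Of the 6 genes of the first steps, from hexokinase to phosphofructokinase, 3 fell. Hk2, an inducible hexokinase, had medians of 1190 and 839 on days 4 and 6 and fell by 0.59 (SE 0.223, adjusted p = 0.0498), a call lost under 5 of 14 other settings, edgeR among them, and with 44 of the 65 libraries left out 1 at a time (adjusted p up to 0.116). Gpi1 (glucose phosphate isomerase) fell by 0.70 (SE 0.210, adjusted p = 0.0114) and Pfkl, the liver-type phosphofructokinase subunit, by 1.04 (SE 0.241, adjusted p = 9.83e-04). The day 4 to 6 medians were 2514 and 1667 for Gpi1 and 1553 and 652 for Pfkl. Hk1 had medians of 40.8, 181, 137 and 174 on days 3 to 6, Pfkm 452, 578, 365 and 422, and Pfkp 946, 267, 208 and 84.4. The day 4 to 6 changes of these 3 were -0.75, -0.22 and -1.43, and that of Pfkp missed the threshold with an adjusted p of 0.0528. Aldoc, a brain-type aldolase, had medians of 181, 130 and 94.0 and was at 0 in 6 of the 22 day 6 libraries, with a change of -2.63 (adjusted p = 0.0507). Eno2, the neuron-type enolase, went the other way from day 4 to day 6, with medians of 56.0 (0 to 184), 64.8 (0 to 354) and 98.7 (0 to 310). Its day 3 median of 166 (137 to 256) lay above that of day 6. The day 4 to 6 change of 1.76 (SE 0.679) had an adjusted p of 0.0555 by limma, while edgeR (3.33, adjusted p = 0.00393) and DESeq2 (6.66, adjusted p = 4.15e-21) called it. By cell type the log2 change of Eno2 was 3.67 in p3, 3.2 in pMN, 0.25 in p2 and -0.10 in p0-1. All day 4 libraries of p3 and pMN at 100 nM were at 0, and their part in these changes was not tested. Summed neuron markers were higher on day 6 than on day 4 as well, and their part in the Eno2 values was not tested.

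Pdk1, a pyruvate dehydrogenase kinase, stood at 1117, 1096 and 1109 on day 3. It ran from 7.80 to 695 with a median of 189 on day 4, from 0 to 373 with a median of 131 on day 5 and from 0 to 354 with a median of 32.8 on day 6, when 6 libraries had no read. The change was -1.17 from day 4 to 5 (adjusted p = 0.309), -2.26 from day 5 to 6 (SE 0.614, adjusted p = 0.0227) and -3.43 over both (SE 0.714, adjusted p = 2.61e-04), with overlapping ranges. The day 4 to 6 call was kept under all 14 other settings, with changes from -3.46 to -2.33, the smallest with DESeq2, edgeR and a pseudocount of 10. The day 5 to 6 call was lost under 6 of the 14, edgeR among them, and without day 6 pMN 500 nM replicate 1 (adjusted p = 0.0619). Pdk3, another kinase of the family, had medians of 289, 312, 329 and 182 on days 3 to 6 and a day 4 to 6 change of 0.25 that was not called. Of the enzyme complex itself, Pdha1, the E1 alpha subunit, fell by 0.87 (SE 0.262, adjusted p = 0.0122) from a median of 777 to 463. Pdhb, the E1 beta subunit, had medians of 1419 on day 4 and 1079 on day 6 with a change of -0.10. Dlat, the E2 subunit, had 878 and 702 with -0.23, and was called only in the day 4 to 5 step at -0.42 (adjusted p = 0.0499), a call lost under 8 of 14 other settings and with 48 of the 65 libraries left out 1 at a time (adjusted p up to 0.297).

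The 7 TCA cycle genes had a median log2 change of -0.57 from day 4 to day 6, against -1.04 for the 15 glycolytic enzymes. Mdh2 (malate dehydrogenase) fell by 0.57 from day 4 to day 6 (SE 0.143, adjusted p = 0.00240), Fh1 (fumarase) by 0.72 (SE 0.164, adjusted p = 8.11e-04), Sdha (the flavoprotein of succinate dehydrogenase) by 0.60 (SE 0.214, adjusted p = 0.0368) and Idh3a (an isocitrate dehydrogenase subunit) by 0.98 (SE 0.295, adjusted p = 0.0117). Their day 4 and day 6 medians were 3689 and 2704, 1823 and 1011, 2644 and 1846, and 602 and 354, in that order, and the ranges overlapped in each. With 1 value per day and replicate number these 4 were not called, with adjusted p of 0.0648, 0.0818, 0.431 and 0.191. Cs (citrate synthase), Ogdh (oxoglutarate dehydrogenase) and Sdhb (the iron-sulfur subunit) had changes of -0.17, -0.35 and 0.17 and were not called. Their medians moved from 1191 to 979, from 1562 to 1241 and from 1699 to 1492. A p that misses the threshold does not show that a gene held its level.

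**Figure D3:**
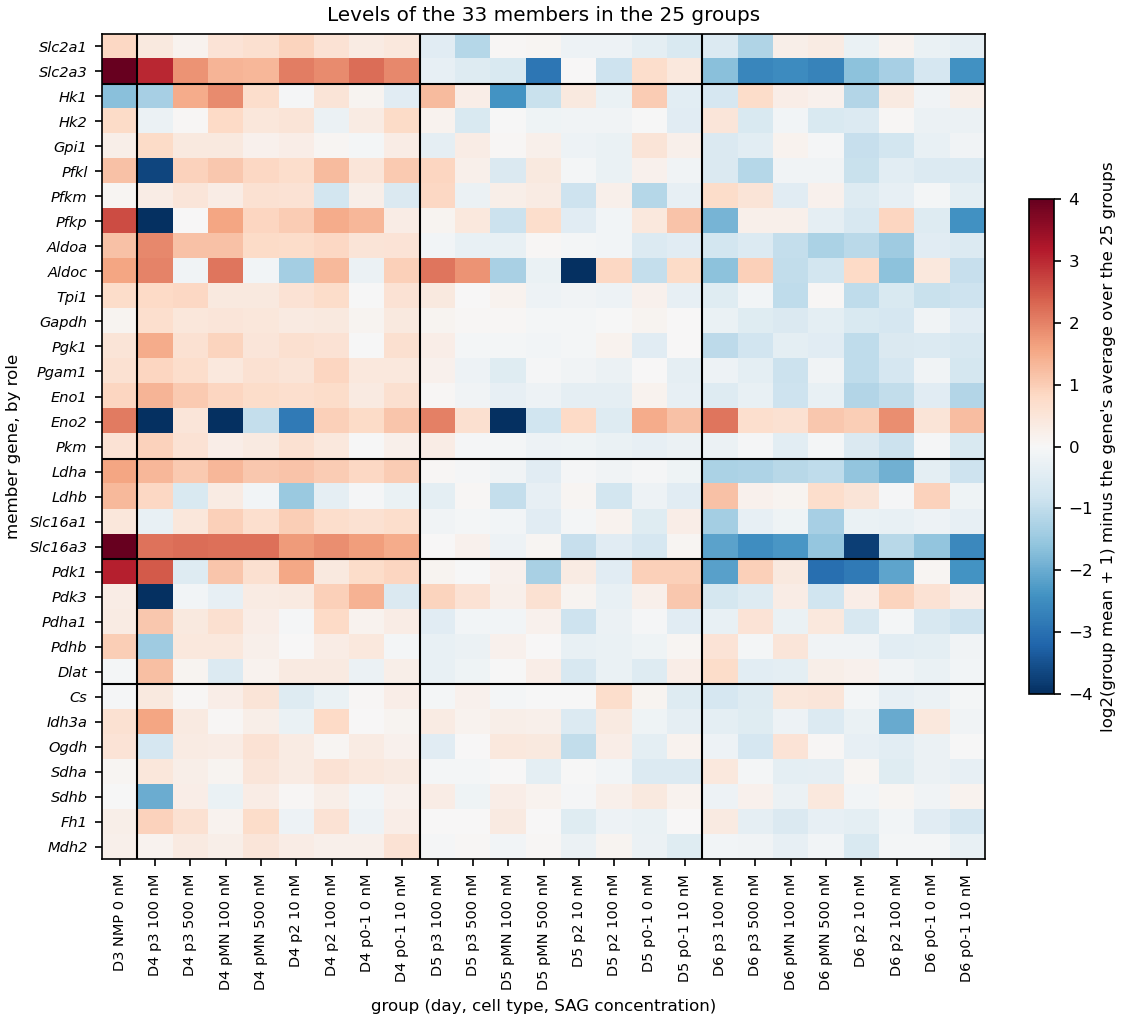
Log2(group mean + 1) minus the average of the gene over groups, for 33 genes in rows and 25 groups of day, cell type and SAG concentration in columns, with red above and blue below the average. Slc2a3, Slc16a3 and Ldha turn from red on days 3 and 4 to blue on day 6, Cs, Ogdh and Sdha stay pale, and the single p3 library at 100 nM on day 4 is dark blue for Pfkl, Pfkp, Eno2 and Pdk3.

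Day 3 and day 4 differ in medium, in the sort and in cell type together, so these cannot be told apart, and day 3 has 3 libraries. With limma 0 of the 33 members were called, where 6.5% of all genes were. At an unadjusted p below 0.05 there were 6, and edgeR's quasi-likelihood test called 3 and DESeq2 called 4, with no share over all genes counted. With 1 value per day and replicate number, 8 were lower (Slc2a3, Pfkl, Pfkp, Eno2, Ldhb, Slc16a3, Pdk1 and Pdhb), where 18.5% of all genes were called lower. The fitted changes were -2.08 for Slc2a3 (SE 0.710, adjusted p = 0.0695), -2.12 for Slc16a3 (SE 1.01, adjusted p = 0.256), -2.35 for Pdk1 (SE 1.32, adjusted p = 0.371), -2.59 for Pfkp (SE 1.01, adjusted p = 0.131) and -3.57 for Eno2 (SE 1.25, adjusted p = 0.0805). Of these, Slc2a3 was called by edgeR (adjusted p = 0.00863) and DESeq2 (adjusted p = 0.00673), as were Pfkp (0.0440 and 0.0163) and Eno2 (0.0109 and 2.29e-09). The 3 day 3 libraries of Slc2a3, Slc16a3 and Pdk1 lay above the highest day 4 library in each case. The median of all genes was -0.40 in this comparison, more genes had a read on day 3 (14070 to 15963, against 9718 to 14433 on day 4), and the median of the members was -0.16.

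Where family members share a step, their proportions differed between days, which is given as a description. Levels were divided by the exon length of each gene to compare genes. The share of Slc2a3 in the pair with Slc2a1 had medians of 30.2%, 11%, 4.44% and 1.57% over days 3 to 6, with a day 6 range of 0.0276 to 4.20%. Slc16a3 made up 72.8% of the pair with Slc16a1 on day 3, and 34.2%, 15.1% and 6.14% (0 to 26.7%) after, so MCT1 transcripts came to outnumber MCT4 transcripts per length. Pdk1 went from 59.0% of the pair with Pdk3 to 19.4%, 11.8% and 5.55%, with wide ranges because both are low. Ldha made up 83.5%, 90.7%, 81.9% and 66.6% of the pair with Ldhb, and on day 6 single libraries ran from 11.2 to 100%. The share of Hk1 among Hk1 and Hk2 went from 2.72% to 15.8%, 16.9% and 20.5%, and that of Pfkm among the phosphofructokinase subunits from 17.9% to 27.2%, 29.5% and 46.7%. On day 4 the median level per kilobase of exon was highest for Eno1 at 13500, followed by Gapdh at 9740, Slc2a1 at 5030, Pkm at 4420 and Ldha at 4090, and it was lowest for Eno2 at 18.8. Reads marked as duplicates were left out before deposit, which lowers short abundant genes most.

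**Figure D4:**
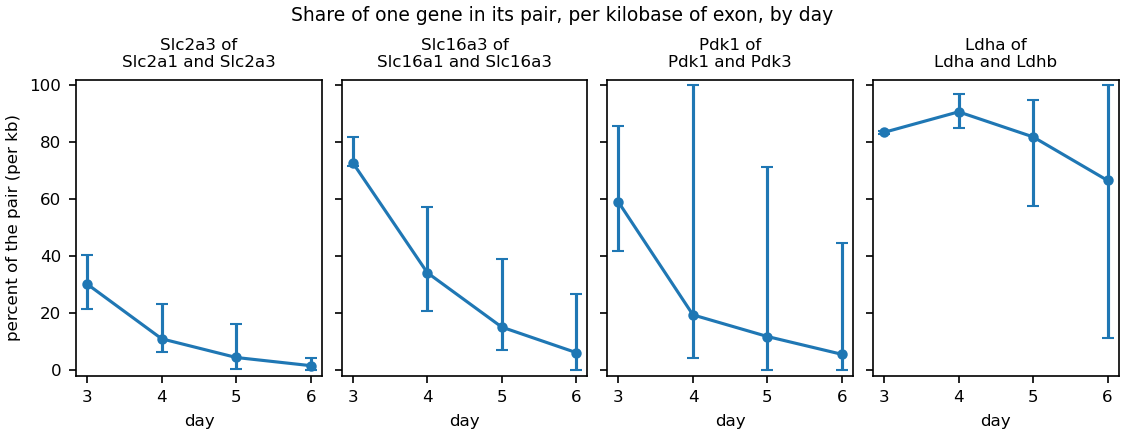
Percent of 1 gene in its pair per kilobase of exon by day, as the median with bars from the lowest to the highest library. The median share of Slc2a3 goes from 30.2 to 1.57%, Slc16a3 from 72.8 to 6.14% and Pdk1 from 59.0 to 5.55% between day 3 and day 6, and Ldha ends at 66.6% with bars from 11.2 to 100%.

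The cell types were compared over days 5 and 6, which asks whether progenitors of different dorsoventral identity differ in these genes. Few did. Slc2a1 stood out, with its lowest levels in p3 cells. Its lowest, median and highest libraries were 3491, 5636 and 8486 in p3 (n = 11), 7519, 11634 and 14037 in pMN (n = 11), 6283, 8602 and 14896 in p2 (n = 12), and 5452, 7527 and 9631 in p0-1 (n = 12). All 11 p3 libraries lay below the pMN and the p2 median, and 9 of 11 below the p0-1 median. The p3 libraries at 100 nM SAG ran from 5636 to 8486, inside the p0-1 range, and those at 500 nM from 3491 to 5301. p3 and p0-1 cells share no SAG concentration, so cell type and concentration cannot be told apart for that pair. The order of the medians was thus pMN, p2, p0-1 and p3, and of the neighbours in this order pMN and p2 (0.32, adjusted p = 0.336) and p2 and p0-1 (0.25, adjusted p = 0.612) were not called apart. By limma the Slc2a1 difference of p3 from pMN was -0.999 on the log2 scale (SE 0.134, adjusted p = 1.86e-06), from p2 -0.68 (SE 0.130, adjusted p = 6.55e-04) and from p0-1 -0.43 (SE 0.130, adjusted p = 0.0469), and pMN exceeded p0-1 by 0.57 (SE 0.130, adjusted p = 0.00641). Against the mean of the other cell types it was -0.70 in p3 (SE 0.108, adjusted p = 1.29e-05). The p3 against p0-1 call was lost under 7 of 14 other settings, edgeR and the fit without the 4 libraries of under 11000 genes among them, and with 25 of the 65 libraries left out 1 at a time (adjusted p up to 0.195). Floor plate markers were higher in the same p3 libraries, and their part in this difference was not tested.

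**Figure D5:**
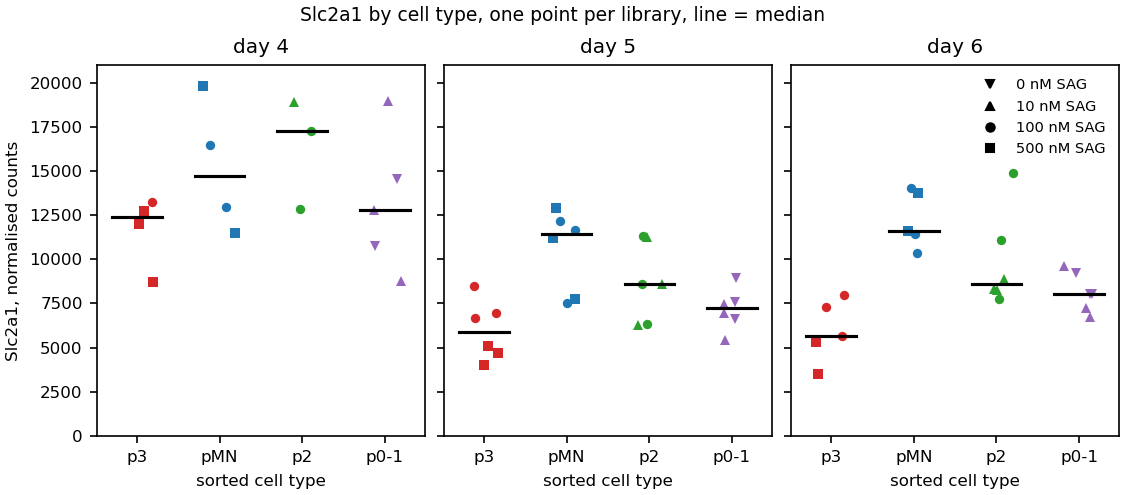
Slc2a1 in normalised counts by sorted cell type on days 4, 5 and 6, 1 point per library with the SAG concentration as its shape and a line at the median. On days 5 and 6 the p3 points lie between 3491 and 8486 and the pMN points between 7519 and 14037.

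In all, p3 and pMN differed in 2 members (Slc2a1 and Eno2) where 1.56% of all genes were called, p3 and p2 in 3 (Slc2a1, Eno1 and Pkm) against 4.02%, p3 and p0-1 in 1 (Slc2a1) against 3.95%, and pMN and p0-1 in 2 (Slc2a1 and Eno2) against 1.96%. Between pMN and p2, and between p2 and p0-1, limma called 0 members each, where it called 0.38% and 0.666% of all genes. At an unadjusted p below 0.05 there were 6 in both, with no share over all genes counted. DESeq2 called Slc2a3 alone, in pMN against p2. p3 against the other cell types gave 2 members (Slc2a1 and Eno1) where 4.25% of genes were called, so apart from Slc2a1 these counts are near the background. Eno2 had a median of 1.84 in pMN, where 4 of 11 libraries were at 0 and the highest at 146, and of 113 (18.4 to 354) in p3, 40.3 (0 to 310) in p2 and 78.4 (19.3 to 195) in p0-1. It was higher in p3 than in pMN by 3.16 (SE 0.849, adjusted p = 0.0396) and lower in pMN than in p0-1 by 2.98 (SE 0.825, adjusted p = 0.0406), at levels low enough that single libraries weigh heavily. Eno1 was higher in p3 than in p2 by 0.49 (SE 0.106, adjusted p = 0.00309), with medians of 11509 and 8188, and Pkm by 0.45 (SE 0.131, adjusted p = 0.0387), with medians of 8851 and 6543. Against the mean of the other types Eno1 was higher in p3 by 0.30 (SE 0.0878, adjusted p = 0.0344). Of these calls that of Eno1 against p2 was kept by edgeR, and both of Eno2, that of Pkm and that of Eno1 against the other types were not.

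Cells of the same sorted type were also compared between 2 SAG concentrations over days 5 and 6, to ask whether the signal level acts within a type. Limma called 0 of the 33 members in each of the 4 pairs, where it called 0.0286% of all genes in p0-1, 0.0645% in p2, 0% in pMN and 0.0931% in p3. At an unadjusted p below 0.05 there were 1, 3, 5 and 5 members in p0-1, p2, pMN and p3, edgeR called 0 in each pair, and DESeq2 called 1, 0, 0 and 1 (Eno1 in p0-1 and Slc2a1 in p3). For these counts the share over all genes was not counted. Slc2a1 in p3, which DESeq2 called and limma and edgeR did not, had these values. At 100 nM it was at 6686, 6985 and 8486 on day 5 and 7981, 7300 and 5636 on day 6, and at 500 nM at 4684, 4014 and 5117 on day 5 and 5301 and 3491 on day 6. The 500 nM libraries lay below the 100 nM libraries on both days, and the change was -0.68 (SE 0.189, adjusted p = 0.139).

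Whether the day 4 to 6 change in p3 differed from that in the other types was tested as an interaction. Limma called 0 of the 33 members, where it called 6.75% of all genes. At an unadjusted p below 0.05 there were 5, edgeR called 1 (Pfkl) and DESeq2 called 4 (Pfkl, Pfkp, Eno2 and Sdhb), with no share over all genes counted. The median over all genes was 0.34 in this contrast, and 912 of the 943 called genes were higher. The p3 library at 100 nM on day 4, with the fewest genes detected, had 65.9 normalised counts of Pfkl, 1.46 of Pfkp, 402 of Sdhb and 0 of Eno2, each the lowest of day 4 or tied with it, and its part in these values was not tested. Pfkl had an interaction of 1.60 (adjusted p = 0.0962) and Slc2a1 of -0.57 (adjusted p = 0.217).

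Other genes of these pathways, not in the set of 33, were counted in the same day 4 to day 6 test, where 22.3% of all genes were called and 10% were called lower. Of 20 further genes of glycolysis and uptake tested, 1 rose and 2 fell, with a median of -0.47. The one that rose was Hk3, a hexokinase known from blood cells, which went from a median of 0 (highest 41.1) on day 4 to 297 on day 5 and 736 (0 to 2449) on day 6, a log2 change of 7.79 (SE 0.785, adjusted p = 8.07e-11), while Hkdc1 fell by 3.07 and Galm fell by 3.80. Of 6 further genes of lactate and pyruvate transport 2 fell, and one was Bsg, the chaperone of MCT1 and MCT4, by 0.88 (SE 0.106, adjusted p = 8.69e-09), with medians of 10720, 6422, 3845 and 3509 on days 3 to 6. The other was Emb, by 0.81. Of 13 further genes of pyruvate dehydrogenase and anaplerosis limma called 0, with 2 at an unadjusted p below 0.05, edgeR 1 and DESeq2 2. Of 14 further TCA cycle genes 3 fell (Mdh1 by 0.78, Sdhc by 0.65 and Sdhd by 0.52) and Idh1 rose by 0.77. Of 7 pentose phosphate genes 2 fell, G6pdx by 1.08 and Tkt by 0.36. Of 22 genes of oxidative phosphorylation 9 fell and 0 rose, with a median of -0.39, among them Cycs by 0.81, Uqcrc1 by 0.79 and Uqcrc2 by 0.77. Of 18 tested genes known from the response to hypoxia, 5 fell, led by Car12 at -3.88, P4ha2 at -2.28 and P4ha1 at -1.28, and Kdm3a rose by 0.91. Of 14 regulators of metabolism, Mlxipl rose by 2.91 and Txnip fell by 1.48.

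The genes whose 25 group means followed a member most closely on the log2 scale were found over all genes tested, as a description. Slc2a3 was most like Ldha (Pearson r = 0.904), Spint1 (0.904) and Apoe (0.899). Slc16a3 was most like Cyba (0.960), Tomm40 (0.912) and Eif5a (0.906), and Ldha was most like Hspd1 (0.938), Cyba (0.935) and Aldoa (0.935). The closest to Slc2a1 was Jade2 (0.821), to Pdk1 Plcg2 (0.810) and to Eno2 Enpp5 (0.809). The points share their libraries and the 4 days, so a gene that changed between days can follow another on that ground alone.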

How the data were processed

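Polyadenylated RNA was recovered from sorted, fixed cells and sequenced after SMART-Seq HT and Nextera XT preparation. The authors aligned reads with STAR to mm10, counted them per gene with featureCounts leaving out duplicates, removed libraries that failed quality control and deposited signal values, that is, read counts divided by 1 size factor per library. Whether counting used strand is not given in the sources used here. The deposited signal was checked to hold whole reads: 100.0% of values above 0 were whole multiples of the step of 1 read (0.7172 to 1.359) within 0.001. Gene positions deposited with the table are of type other and gave coordinates and exon lengths.

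Genes with a mean of at least 10 over all libraries (13964 of 25239) were tested with limma 3.58.1 in R 4.3.3 on log2(value + 1) with an intensity trend, 1 mean for each of 25 groups over 65 libraries (40 residual degrees of freedom). Fold changes on this scale depend on the pseudocount for low genes, and can exceed the ratio of medians where libraries are at 0. Benjamini-Hochberg adjustment ran over all genes in each comparison. Groups were averaged with equal weight, over the 8 matched groups between days and over days 5 and 6 between cell types. Counts recovered as whole reads were tested with edgeR 4.0.16 and DESeq2 1.42.0 as alternatives. Scripts were tested on simulated data. Python 3.11.15, pandas 2.3.3 and matplotlib 3.10.9 made the summaries and plots.

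The members and the marker and pathway lists were chosen with earlier results of these data known, so they give no independent support. Named were members called in a comparison and up to 3 per direction with the largest change, and from the other lists up to 3 called genes per direction. The alternatives without libraries of few genes, without day 4 groups of 1 library, and with the replicate block within day (1 value per day and replicate number between days, 12 values and 8 residual degrees of freedom, and a block of day and number within days) were chosen after seeing the data. Promoters came from RefSeq.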

Additional observations from a re-analysis of the deposited data

Results flagged for a closer look

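Among the further genes of these pathways, 5 had a day 4 to 6 change in p3 cells that differed from that in the other cell types by the limma interaction test. The differences in log2 change were 1.71 for Adpgk (SE 0.532, adjusted p = 0.0380), 2.93 for Suclg2 (SE 0.701, adjusted p = 0.00360), 5.96 for Rpe (SE 1.63, adjusted p = 0.0144), 2.52 for Taldo1 (SE 0.456, adjusted p = 7.89e-05) and 6.08 for Car12 (SE 1.66, adjusted p = 0.0140). In this contrast the median over all genes was 0.34, and 912 genes were higher and 31 lower. The lowest day 4 p3 library was at 5.12 normalised counts of Suclg2, 19.0 of Taldo1 and 0 of Rpe. Without the 4 libraries with under 11000 genes, the differences were 1.32 for Adpgk (adjusted p = 0.289), 0.02 for Suclg2 (adjusted p = 1), 1.26 for Rpe (adjusted p = 0.946), -0.91 for Taldo1 (adjusted p = 0.662) and 5.53 for Car12 (adjusted p = 0.314), and 0 of the 5 were called. Without the day 4 groups of 1 library, they were 1.59 for Adpgk (adjusted p = 0.534), -0.64 for Suclg2 (adjusted p = 0.990), 1.98 for Rpe (adjusted p = 0.979), -0.76 for Taldo1 (adjusted p = 0.935) and 5.43 for Car12 (adjusted p = 0.443), and 0 of the 5 were called.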

How the results depend on the processing

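Counts of called members were recomputed under 11 other settings planned for each comparison, 3 added after seeing the data, and with each of the 65 libraries left out. No call turned its direction. For day 4 to 6 (21 called) the settings gave 19 to 24 and for day 4 to 5 (17) 13 to 19, except that the rule of an adjusted p below 0.01 with more than 2-fold change gave 11 and 5 and the replicate block within day 15 and 4, and leaving out 1 library gave 19 to 23 and 12 to 17, the lowest without day 4 p2 100 nM replicate 3. For day 5 to 6 (10) the stricter rule gave 2, the replicate block within day 0 and a fit of the compared libraries alone 6, and leaving out 1 library 8 to 11. For day 3 to 4 (0) the counts were 3 with a pseudocount of 10, 1 without the filter, 1 with quantile normalisation, 10 with array weights, 8 with the compared libraries alone, 3 with edgeR, 4 with DESeq2, 1 without the libraries under 11000 genes, 1 without day 4 groups of 1 library, 8 with the replicate block within day, and 0 to 2 with 1 library left out. For the 6 cell type pairs (8) the stricter rule gave 0, the compared libraries alone 5 and edgeR 5, and leaving out 1 library 5 to 9, with 5 without day 5 p3 100 nM replicate 1, day 6 p3 100 nM replicate 3 or day 6 p3 500 nM replicate 3. For p3 against the other types (2) the stricter rule gave 0, no filter 1, the compared libraries alone 1, edgeR 1 and leaving out 1 library 1 to 3, with 1 without day 5 p3 replicate 3 at 100 or 500 nM or day 6 p3 500 nM replicate 1 or 3. SAG pairs (0) gave 2 with DESeq2, 1 with the replicate block within day and 0 to 2 with 1 library left out, 2 without day 6 p3 100 nM replicate 3. The interaction (0) gave 1 with genes detected as a covariate, 1 with array weights, 1 with edgeR, 4 with DESeq2 and 0 to 1 with 1 library left out. The cause was not tested. From day 4 to 5 the median of all genes was 0.20 with edgeR against 0.01 with limma, and from day 4 to 6 it was 0.19 against 0.02. Quantile normalisation moved that of day 3 to 4 from -0.40 to -0.01. Of 58 named calls, 14 were kept under every setting and library left out, and 9 were lost under the stricter rule alone.

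The labels do not say that replicate numbers pair libraries. Same-numbered libraries deviated from their group means with a median correlation of 0.016 over 634 pairs, 0.789% of them over 0.1. Within a day it was 0.0334 over 186 pairs, against -0.0189 over 358 pairs of other numbers, and replicate 3 was the highest in every group for 4 members on day 4 (6 groups) and 3 on day 5 (8 groups), a hint that libraries of 1 day and number share variation. With the replicate block within day the other counts were 7 for the cell type pairs, 3 for p3 against the other types and 0 for the interaction. With a replicate block across days, the counts were 1 for day 3 to 4, 14 for day 4 to 5, 11 for day 5 to 6, 22 for day 4 to 6, 9 for the cell type pairs, 3 for p3 against the other types, 1 for the SAG pairs and 0 for the interaction. Low genes such as Eno2, Aldoc and Pdk1, with libraries at 0, limit what the depth can show.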
